A study of Homo sapiens with 12 samples.

Results

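Cadherins and protocadherins were followed in HT1376, a human bladder cancer cell line of epithelial origin, and in a FOXP3 knockout of it. The genes were chosen by name from the count table: 96 of its 60666 genes carried a cadherin (CDH and a number) or protocadherin (PCDH) symbol, and 64 of them reached a total of 10 counts over the 12 libraries. Of these 64 genes, 41 were clustered protocadherins (8 PCDHA, 9 PCDHB and 24 PCDHG genes) and 23 were not (16 cadherins and 7 non-clustered protocadherins). PCDHA5, with 10 counts, lay just inside the minimum, and PCDHB11, with 9, just outside it.

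The 4 groups of 3 libraries each, numbered 11, 12 and 13, came from the control line HT1376 CT and the knockout HT1376 FOXP3 KO, without treatment or after IFNγ at 100 ng/mL for 48 hours. CT carried Cas9 with a guide against luciferase, and KO was made with guides against an exon of FOXP3, so both lines had been through editing. Each line was 1 single-cell clone, so that the knockout and the choice of clone cannot be told apart. Nothing in the labels says that the 3 libraries of a group came from separate cultures, so the p-values measure only the spread between libraries. The question here was which adhesion molecules differed between the lines, in a study of FOXP3, IFNγ and epithelial-to-mesenchymal transition.

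Classical cadherins are calcium-dependent adhesion receptors that bind the same cadherin on a neighboring cell and attach to actin through catenins. E-cadherin (CDH1) is the main adherens junction protein of epithelia, P-cadherin (CDH3) is typical of basal epithelial cells, and loss of E-cadherin with gain of N-cadherin (CDH2) is the textbook sign of epithelial-to-mesenchymal transition. Clustered protocadherins are encoded side by side on the long arm of chromosome 5. Each has its own promoter and large first exon, and in the alpha and gamma clusters these first exons are spliced to shared constant exons. Promoter choice in neurons depends on CTCF, cohesin and DNA methylation, and gives each cell its own set of isoforms.

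Depth ranged from 4490684 counts (CT with IFNγ, library 12) to 39270042 (untreated CT, library 13), with a median of 15551202. FOXP3 itself had between 0 and 3 counts in every library of both lines, so it could not serve as a check of the knockout labels. IRF1, a textbook IFNγ target, was used as a check of the treatment. Its level in CPM (counts scaled to library size with TMM factors) was 57.0 to 67.7 in untreated CT. In untreated KO it was 45.3 to 55.1 CPM. With IFNγ it was at 855 to 909 CPM in CT and at 370 to 389 CPM in KO, without overlap between the lines. The KO libraries numbered 12 stood apart from the other KO libraries: their chi-square per gene against them was 28.3 to 42.4, against 10.3 and 12.9 between libraries 11 and 13. All 6 epithelial markers (EPCAM and keratins 5, 7, 8, 18 and 19) were above 3 counts in every group, with a summed level of 3426 to 4686 CPM. Of 10 markers of other cell types, CD68 was at 0 in all libraries and PECAM1 at 0 in untreated KO. In all, 3 of the 10 were at 0 in untreated KO and 3 in treated KO, against 1 in untreated and 2 in treated CT. Only 4 were above 3 counts in some library of each KO group, against 9 in untreated and 8 in treated CT. The summed level of these 10 was 29.5 to 64.9 CPM in CT and 302 to 459 CPM in KO. In untreated KO most of it was COL1A2 (361 ± 76.8 CPM, SD, n = 3), and in untreated CT COL1A2 was at 24.9 ± 8.69 and COL1A1 at 28.8 ± 2.96 CPM. COL1A1 was lower in KO. Their part in the results was not tested. The lines were single-cell clones of HT1376. In bulk RNA, fewer cells expressing a gene and less RNA per cell cannot be told apart.

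The alpha, beta and gamma clusters lie in this order on GRCh38, at chr5:140786136-141012347, chr5:141051374-141249365 and chr5:141330514-141512977. Of the 64 members, 48 matched a promoter in the RefSeq table (GRCh38.p14, 250 bases before to 50 after the start, first listed start of each gene), 34 of them clustered. The short run of bases that recurs most often before the starts of a cluster is shown here to let a reader compare promoters of 1 cluster, although not all of them hold it. ATGATGTCGC was found in 8 of 13 PCDHA promoters (on the gene's strand; 0.0313% of all 35116 promoters in the table, either strand), GGTGGCGCTG in 12 of 14 PCDHB promoters (0.276% of all) and GCGCCGCTGT in 9 of 20 PCDHG promoters (0.131% of all). These were the most frequent 10-base words of each family, picked by a search over all words, and the capitals mark them.
PCDHA4, chr5:140806976-140807009, plus strand: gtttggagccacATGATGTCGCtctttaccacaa
PCDHA12, chr5:140875241-140875274, plus strand: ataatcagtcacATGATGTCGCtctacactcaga
PCDHB2, chr5:141094543-141094576, plus strand: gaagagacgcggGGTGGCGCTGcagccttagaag
PCDHB15, chr5:141245313-141245346, plus strand: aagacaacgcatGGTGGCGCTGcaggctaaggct
PCDHGB5, chr5:141397863-141397896, plus strand: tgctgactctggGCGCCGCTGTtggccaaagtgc
PCDHGB6, chr5:141407924-141407957, plus strand: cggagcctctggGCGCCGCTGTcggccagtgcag
PCDHGA9, chr5:141402714-141402747, plus strand: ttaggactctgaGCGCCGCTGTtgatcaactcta
The promoters of the clustered members had a lower GC content than others, with medians of 35.8% (PCDHA, 6 promoters), 39.2% (PCDHB, 8) and 42.0% (PCDHG, 20) against 58.7% in the whole table. TAAACA or its reverse complement TGTTTA, a short form of the forkhead motif, stood in 5 of the 48 member promoters (10.4%, against 12.3% of all promoters). CAGGTG or CACCTG, the E-box bound by repressors of E-cadherin, was in 5 (10.4%, against 20.6%). CDH1 and CDH3 are among the 16 members with no promoter in the table, so neither tally covers them, and other forms of both motifs were not searched. A match is a description of the letters only.

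In untreated CT the most abundant members per kilobase of exon not shared with another gene were PCDH1 (102 ± 13.2 CPM per kb, SD, n = 3), CDH1 (66.3 ± 4.07), CDH3 (22.9 ± 3.24), CDH18 (7.84 ± 1.86) and PCDH7 (4.66 ± 0.25). PCDH1 is a protocadherin of epithelial surfaces. In untreated KO the order was PCDH1 (47.4 ± 9.47), CDH1 (41.8 ± 5.02) and CDH10 (25.8 ± 15.0), and PCDH1 and CDH1 did not differ beyond their spread. The first clustered gene was PCDHGB5 in both lines, at 1.80 ± 0.64 in CT and 2.20 ± 0.41 in KO. In the map of levels a few genes stand out above the gamma cluster.

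**Figure D1:**
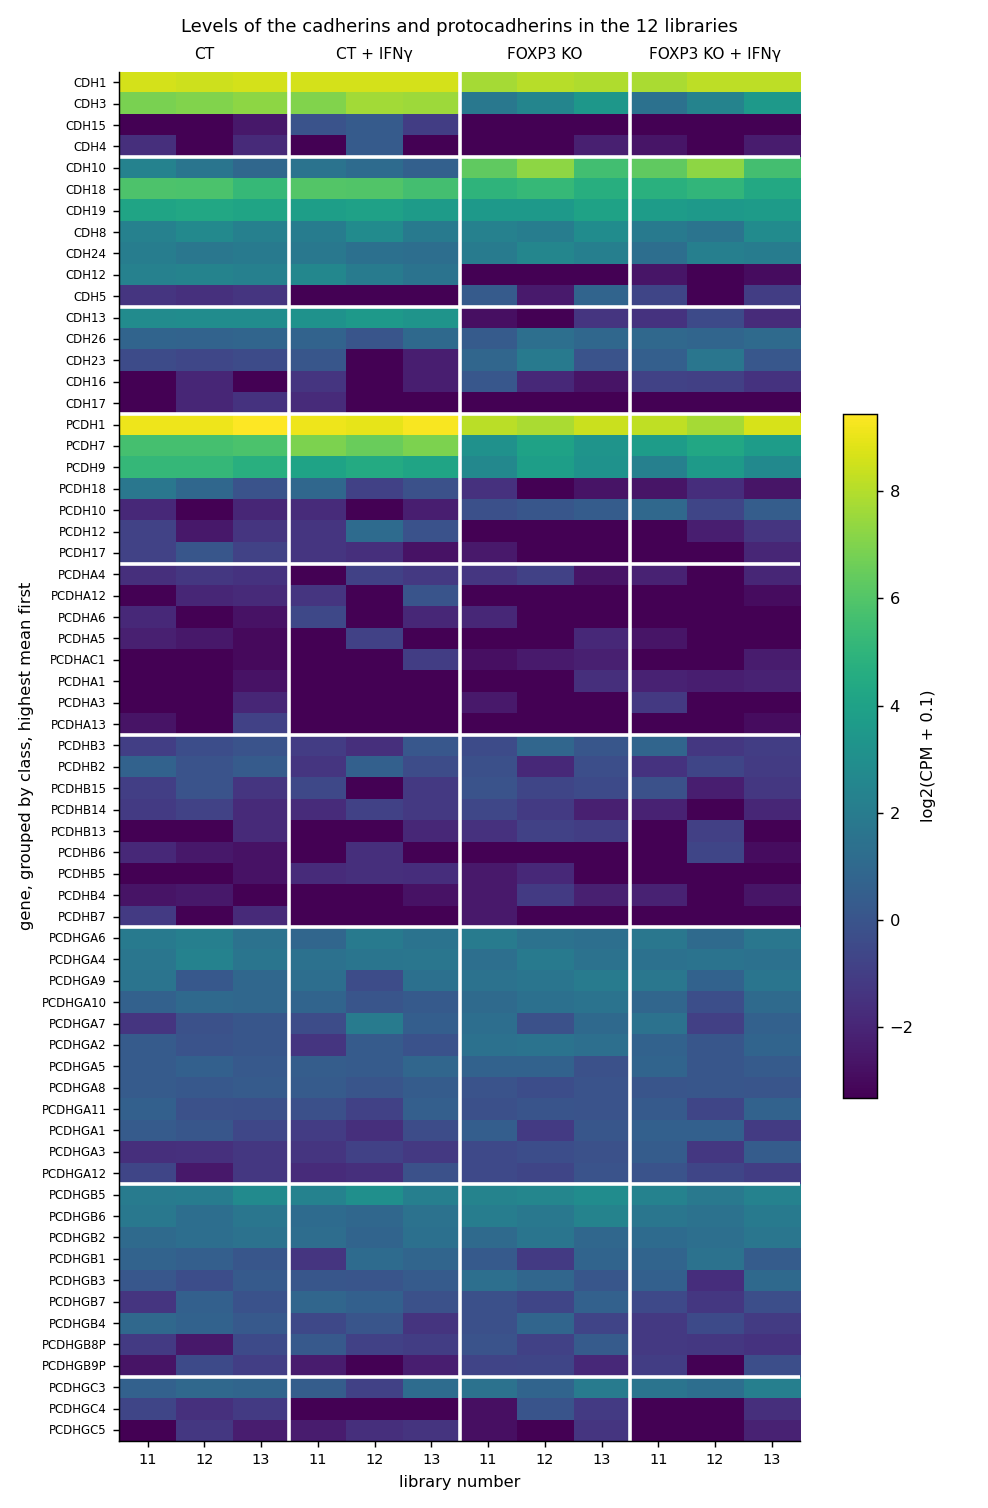
Heat map of log2(CPM + 0.1) for the 64 genes (rows, grouped by class and ordered by mean) in the 12 libraries (columns, 3 per group). CDH3, CDH12 and CDH13 darken from CT to KO, and CDH10 brightens. The most abundant gamma protocadherins hold a similar shade in all columns, whereas low ones such as PCDHGC4, at 0 counts in treated CT, vary.

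Knockout against control without IFNγ separated the clustered genes from the others in how many passed the test. Of 55 members tested, 4 were higher and 11 lower in KO (edgeR quasi-likelihood test, Benjamini-Hochberg adjusted p under 0.05 over 25320 genes), where 14.0% of all genes were called higher and 18.2% lower. Among the 33 clustered genes tested 1 was higher and 0 lower (4 had an unadjusted p under 0.05, and DESeq2 also called 1), and among the 22 others 3 were higher and 11 lower. The median log2 fold change was 0.16 for the clustered genes, -0.89 for the others and -0.02 for all genes, and the median absolute value was 0.49, 2.01 and 0.63. The clustered genes had fewer counts, with a median of 106 in the 6 libraries against 402.5 for the others. With 100 or more counts, 1 of 20 clustered genes and 11 of 15 others were called, against 42.3% of all genes, but the median SE was still 0.41 for these clustered genes, 0.28 for the others and 0.19 for all genes.

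E-cadherin and P-cadherin were both lower in KO, by very different amounts. CDH1 (chr16:68737292-68835537, plus strand) was at 387, 354 and 399 CPM in untreated CT libraries 11, 12 and 13 and at 208, 265 and 246 CPM in untreated KO. The groups did not overlap, and the log2 fold change was -0.65 ± 0.12 (SE; adjusted p = 0.00152, edgeR), or 1.57-fold lower. CDH3 (chr16:68636189-68727468, plus strand), which ends 9823 bases before CDH1 begins, was at 116, 131 and 154 CPM in CT and at 3.38, 5.44 and 10.7 CPM in KO. Every KO library was far below every CT library, and the fitted change was -4.35 ± 0.34 (20.4-fold lower, adjusted p = 3.75e-06, edgeR). Relative to its mean, CDH3 varied more among the 3 KO libraries (6.51 ± 3.78 CPM, SD) than CDH1 did (239.7 ± 28.8 CPM). N-cadherin did not appear in their place: CDH2 had 1 count over all 12 libraries, in KO with IFNγ, where a count of 3 would equal 0.0793 CPM in the deepest library and 0.692 CPM in the shallowest. Of the other type I genes, CDH15 (M-cadherin of muscle) and CDH4 (R-cadherin) were under 2 CPM in every library.

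**Figure D2:**
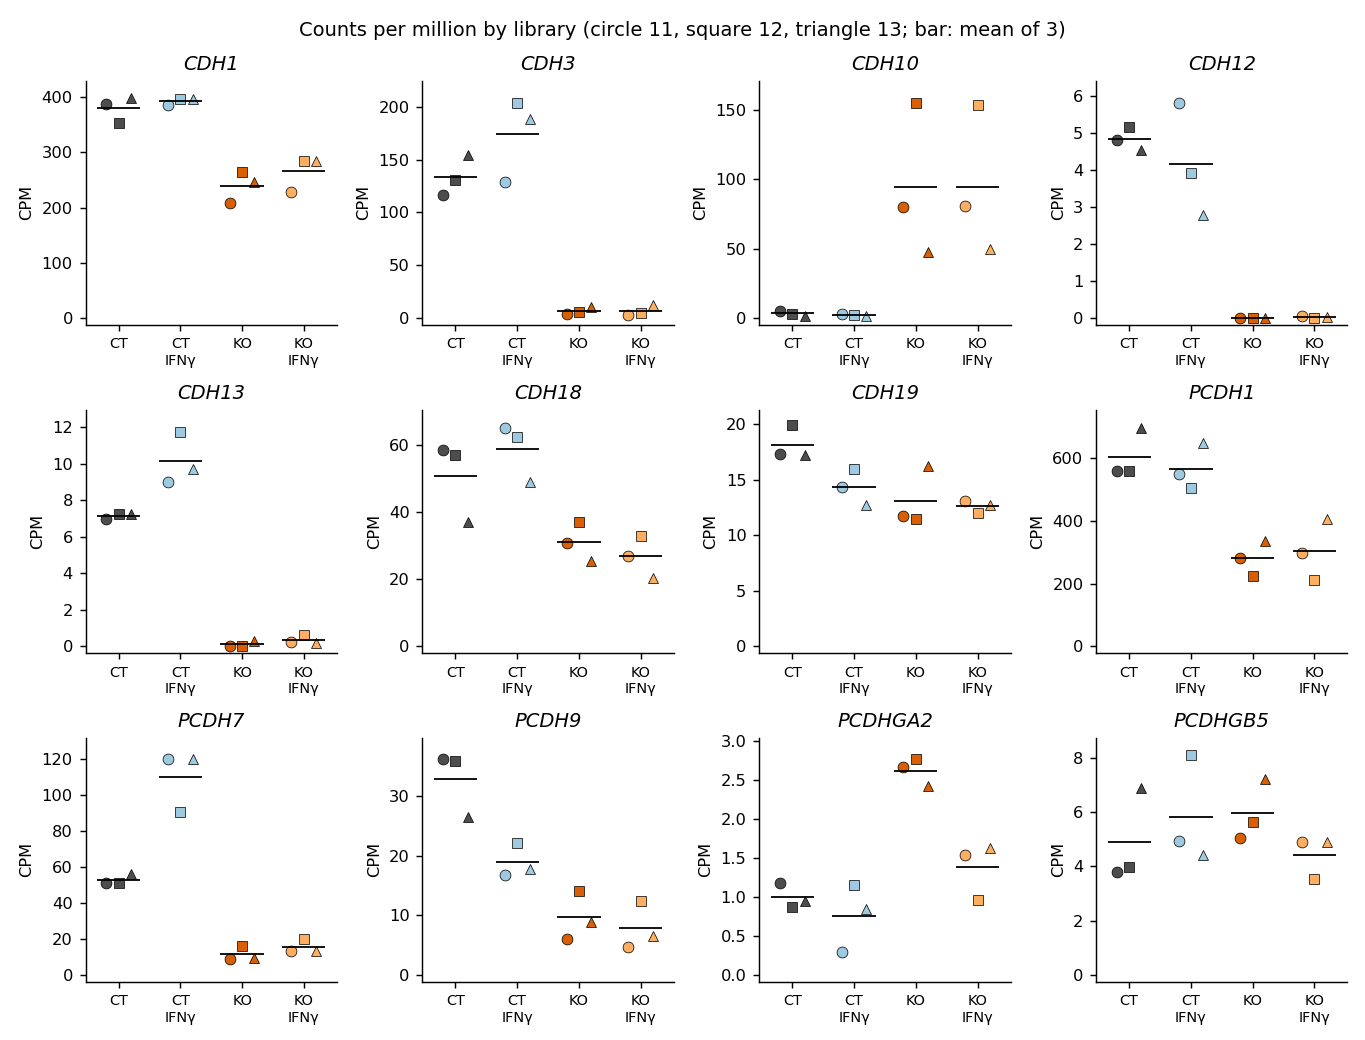
CPM of 12 genes in each library (y axis, linear, each panel with its own range), by group on the x axis; symbols give the library number and bars the mean of 3. CDH1 and CDH3 fall to different degrees in KO, CDH10 is high in KO alone with library 12 highest in both treatments, and PCDH7 is higher with IFNγ in every CT library.

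Type II cadherins, which pair by a wider binding interface and are best known from the nervous system, moved in opposite directions. CDH10, CDH12 and CDH18 are neighbors on the short arm of chromosome 5, with 1633755 bases between CDH12 and CDH10 and 1174799 bases between CDH18 and CDH12. CDH10 (chr5:24487100-24644978, minus strand) was at 5.03, 3.02 and 1.80 CPM in untreated CT and at 80.4, 155 and 47.9 CPM in untreated KO. Its lowest KO library lay well above the highest CT library, and the log2 fold change was 4.92 ± 0.48 (30.3-fold higher, adjusted p = 2.00e-05, edgeR). CDH12 (chr5:21750673-22853344, minus strand) was at 4.80, 5.16 and 4.55 CPM in CT and had 0 counts in all 3 untreated KO libraries against 319 in CT. Set against a floor of 3 counts over the group, it was at least 81.8-fold lower in KO (adjusted p = 1.17e-05, edgeR). CDH18 (chr5:19471296-20575873, minus strand) was at 58.6, 57.0 and 37.0 CPM in CT and 30.9, 37.1 and 25.4 CPM in KO. The lowest CT value lay just below the highest KO value, and its change of -0.69 ± 0.20 (adjusted p = 0.0212, edgeR) lost its call in 4 of the 6 fits that leave out 1 library (CT 11, CT 12, KO 11 or KO 13; adjusted p 0.0843 to 0.111). The promoters of the neighbors that moved furthest apart, CDH10 and CDH12, are printed as the 250 bases before their first listed start, in lower case with no motif marked. CDH12 has further listed starts that are not shown.
CDH10, chr5:24644979-24645228, minus strand: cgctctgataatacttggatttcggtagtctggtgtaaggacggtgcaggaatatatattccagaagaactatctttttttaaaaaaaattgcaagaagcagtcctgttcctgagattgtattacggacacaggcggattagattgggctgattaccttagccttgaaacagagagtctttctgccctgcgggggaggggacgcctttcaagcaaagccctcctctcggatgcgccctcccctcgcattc
CDH12, chr5:22853345-22853594, minus strand: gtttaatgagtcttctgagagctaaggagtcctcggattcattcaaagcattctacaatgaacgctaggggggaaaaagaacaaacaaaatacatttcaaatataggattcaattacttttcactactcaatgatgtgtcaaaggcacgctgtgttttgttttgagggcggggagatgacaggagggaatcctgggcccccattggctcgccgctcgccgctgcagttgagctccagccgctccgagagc

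The other 4 type II members were not called. CDH19, known from glial precursors, was at 17.2 to 19.9 CPM in CT and 11.4 to 16.2 CPM in KO (log2 fold change -0.45 ± 0.18, adjusted p = 0.0781, edgeR). CDH8, CDH24 and CDH5 (VE-cadherin of endothelium) stayed under 8 CPM in every library. CDH5 was called higher in KO without KO library 12 (2.33, adjusted p = 0.00772) and without the low-count filter (1.80, adjusted p = 0.0359, edgeR). Under IFNγ, with 0 counts in CT and 20 in KO, it was not called in the main fit. It was called there without the filter, in the fit of all 12 libraries and without treated KO 12 (adjusted p 0.0382 to 0.0468, edgeR). Among atypical cadherins, CDH13 (T-cadherin, held in the membrane by a lipid anchor without a cytoplasmic tail) was at 6.97, 7.23 and 7.24 CPM in CT and at 0.04, 0 and 0.29 CPM in KO, with 484 against 6 counts. That is a log2 fold change of -5.86 ± 0.55 (adjusted p = 1.49e-05, edgeR). CDH23, a cadherin of hair cell tip links, was at 0.64, 0.56 and 0.66 CPM in CT and 1.76, 3.66 and 0.86 CPM in KO, a change of 1.71 ± 0.54 (adjusted p = 0.0325, edgeR). Its groups did not overlap, but it lost its call in 5 of the 6 fits with 1 library fewer (all but without KO 13; adjusted p 0.0588 to 0.125).

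All 7 non-clustered protocadherins that reached the count minimum were called in untreated cells, 6 lower and 1 higher in KO. Among all genes, 14.0% were called higher and 18.2% lower. PCDH1 (chr5:141853090-141879246, minus strand) has its nearer end 340114 bases past the end of PCDHGC5. It was at 557, 560 and 694 CPM in CT and 283, 224 and 336 CPM in KO. Its log2 fold change was -1.09 ± 0.15 (adjusted p = 0.00025, edgeR), with no overlap between the groups. PCDH7 (chr4:30720369-31146805, plus strand) was at 51.1, 51.0 and 55.9 CPM in CT and 8.82, 16.1 and 9.62 CPM in KO, a change of -2.20 ± 0.21 (adjusted p = 1.72e-05, edgeR). PCDH9 (chr13:66302834-67230445, minus strand) was at 36.3, 35.8 and 26.4 CPM in CT and 6.04, 14.1 and 8.93 CPM in KO, a change of -1.77 ± 0.27 (adjusted p = 0.000521, edgeR). KO library 12 was the highest of the KO libraries for PCDH7 and PCDH9 and the lowest for PCDH1. PCDH18 fell by 3.85 ± 0.79 on the log2 scale (adjusted p = 0.00363, edgeR) and PCDH10, the only member of the class that was higher, rose by 2.92 ± 0.72 (adjusted p = 0.0102, edgeR). PCDH12, a protocadherin of endothelium 64334 bases from PCDH1, had 20 counts in CT and 0 in KO, at least 5.13-fold lower (adjusted p = 0.0343, edgeR), and was not called in 4 of the 6 fits with 1 library fewer (without CT 11, CT 13, KO 11 or KO 13; adjusted p 0.0705 to 0.0881 where it was still tested). PCDH17 had 38 and 2 counts, a ratio of KO to CT of 0.0684 (95% counting interval 0.0080 to 0.265), and its adjusted p rose from 0.0149 to 0.0517 without CT library 12 (edgeR). Neither PCDH12 nor PCDH17, with nearly all their counts in CT, was tested after filterByExpr, a stricter count filter.

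With IFNγ, the lines were compared in separate libraries of the same clones, so a difference between clones would recur. Same-numbered libraries of a line also deviated together. Of 51 members tested, 2 were higher and 11 lower in KO, where 13.2% of 24388 genes were called higher and 15.7% lower (edgeR). The 30 clustered genes tested gave 0 higher and 1 lower (2 at an unadjusted p under 0.05, and 0 called by DESeq2), and the 21 others gave 2 higher and 10 lower. CDH1 was at 386, 396 and 397 CPM in CT with IFNγ and 229, 284 and 284 CPM in KO with IFNγ (-0.52 ± 0.12, adjusted p = 0.00586, edgeR). CDH3 was at 129, 204 and 189 CPM against 2.61, 5.12 and 12.0 CPM (-4.62 ± 0.43, adjusted p = 1.52e-05, edgeR). CDH10 was at 2.81, 2.08 and 1.40 CPM against 81.0, 153 and 49.7 CPM (5.60 ± 0.46, adjusted p = 6.41e-06, edgeR). CDH12 had 127 counts against 2, a ratio of 0.0093 (95% counting interval 0.0011 to 0.0344). CDH13 (-4.94 ± 0.43), CDH18 (-1.09 ± 0.20), PCDH1 (-0.85 ± 0.19) and PCDH7 (-2.82 ± 0.20) were lower again, each without overlap between the groups.

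**Figure D3:**
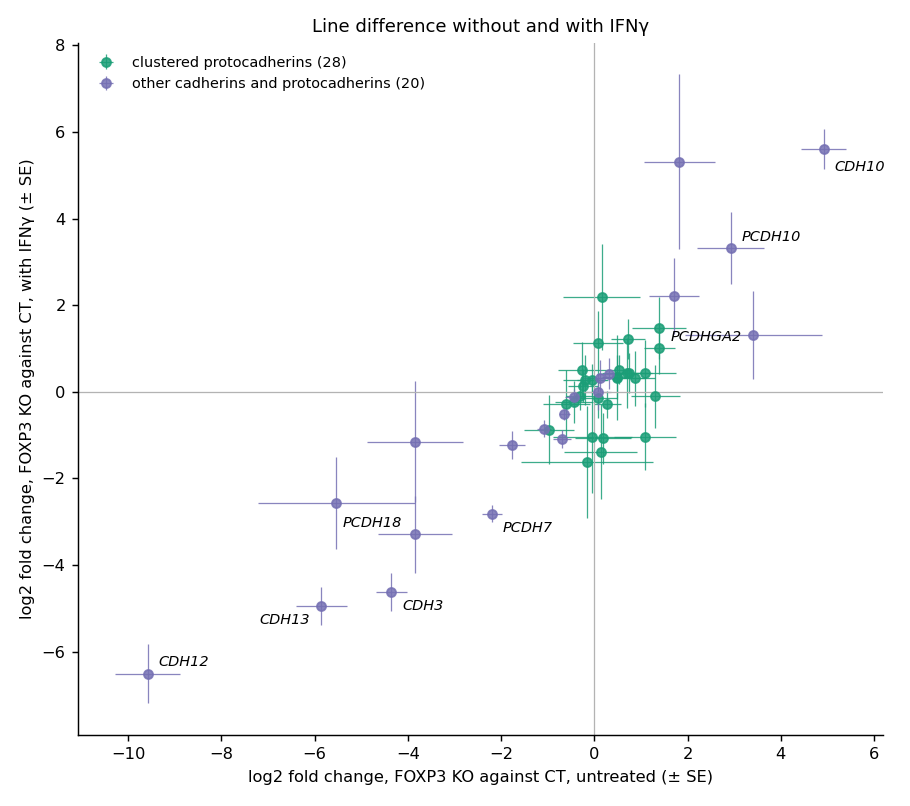
Log2 fold change of KO against CT without IFNγ (x axis) and with IFNγ (y axis) for the 48 members tested in both, with SE bars; fitted values of genes at 0 counts in a group, such as CDH12, depend on the prior count. The 28 clustered genes (green) gather near 0 on both axes, while CDH12, CDH13, CDH3 and PCDH7 lie low and CDH10 and PCDH10 high on both.

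A few calls under IFNγ rest on little. PCDH9 (-1.23 ± 0.32, adjusted p = 0.0142) was not called without KO library 13 (adjusted p = 0.0566), PCDH10 (3.33 ± 0.83, adjusted p = 0.0112) without CT 13 or KO 11 (0.0596 and 0.0598), and PCDH18 (-3.28 ± 0.89, adjusted p = 0.0173) without CT 11, KO 11 or KO 13 (0.0639 to 0.112), all by edgeR. CDH15 had 21 counts in CT with IFNγ and 0 in KO with IFNγ, at least 11.8-fold lower (adjusted p = 0.0093, edgeR). All its counts were in CT, so it reached the count minimum only through CT. After filterByExpr, a stricter count filter, CDH15, PCDH10, PCDH18 and PCDHA12 were not tested. PCDHA12, the 1 clustered gene called, had 19 counts against 1 in groups that overlapped, a ratio of 0.0312 (95% counting interval 0.00075 to 0.196), and was not called by DESeq2 or in 5 of the 6 fits with 1 library fewer (all but without CT 12; adjusted p 0.0610 to 0.120 where it was still tested).

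The summed level of the clustered genes was slightly higher in untreated KO, and that of the other genes was lower. The 41 clustered genes together were at 38.6, 39.2 and 39.5 CPM in untreated CT and at 46.2, 44.4 and 49.4 CPM in untreated KO. All KO libraries were above all CT libraries, by a ratio of means of 1.19. The 23 other genes were at 1302 ± 94.6 CPM in CT and 704 ± 50.9 CPM in KO (SD, n = 3), a ratio of 0.54. Clustered genes therefore took 2.33% (95% exact binomial interval 2.09 to 2.60) to 3.06% (2.80 to 3.34) of all member counts in the 6 CT libraries and 3.90% (3.47 to 4.38) to 6.66% (6.28 to 7.06) in the 6 KO libraries; the intervals cover counting error only. Sums over members were not tested.

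The gamma cluster made up most of the clustered counts. Its summed level was 35.2 ± 0.38 CPM in untreated CT and 42.7 ± 2.93 in untreated KO, and between 21 and 24 of its 24 members had a count in every library. The beta cluster summed to 3.12 ± 0.15 and 3.39 ± 0.42 CPM and the alpha cluster to 0.79 ± 0.37 and 0.57 ± 0.03 CPM, at 7 to 46 and 6 to 14 counts per library. Under IFNγ the clustered sum was 36.2 ± 4.24 CPM in CT and 39.0 ± 7.51 CPM in KO, and these groups overlapped because KO library 12 was at 30.3 CPM. The gamma cluster dominates that sum, and smaller families had other ratios under IFNγ. The alpha cluster was at 0.87, 0.92 and 1.79 CPM in CT and 0.67, 0.11 and 0.46 CPM in KO, without overlap and with a ratio of means of 0.344, from 45 and 25 counts in all. The 3 PCDHGC genes summed to 1.502 ± 0.89 CPM in CT and 3.37 ± 1.29 CPM in KO, a ratio of 2.25 with overlapping groups, and in untreated cells the ratio was 1.48 without overlap. At least 1 alpha gene was at 0 counts in each of the 12 libraries and at least 1 gamma gene in 7 of them, so reads from the shared constant exons were not given to every gene of a cluster.

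**Figure D4:**
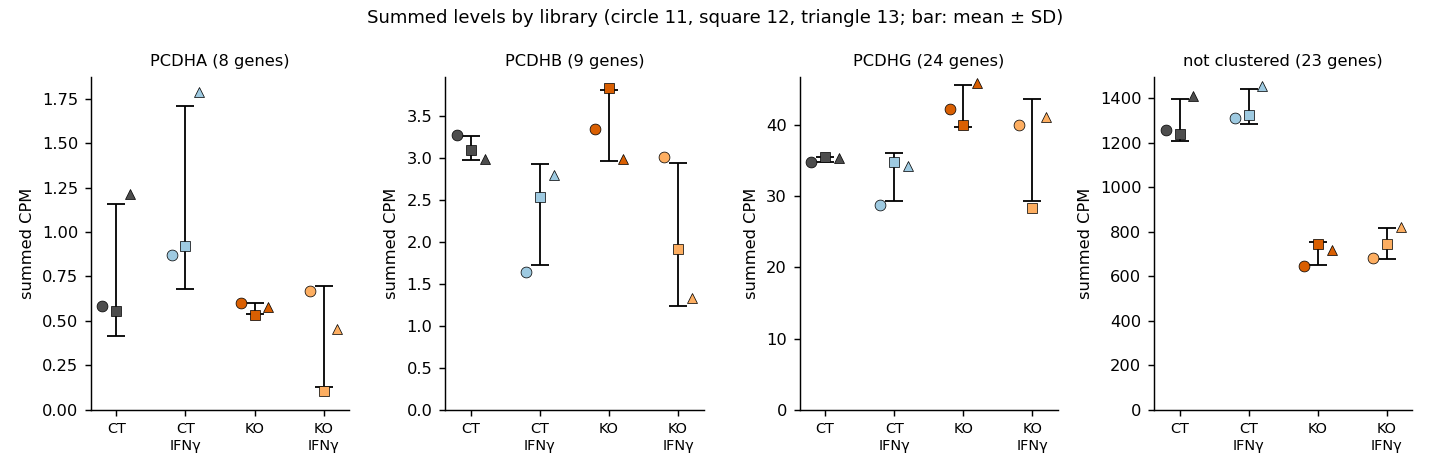
Summed CPM of the alpha, beta and gamma protocadherins and of the 23 members outside the clusters (y axes from 0, each with its own range) in each library, with mean and SD of 3. The sum outside the clusters is lower in every KO library than in every CT library, whereas the gamma sum is higher in untreated KO by 1.21-fold and overlaps between lines under IFNγ.

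Along the clusters few genes passed the test. PCDHGA2 (chr5:141338760-141512975, plus strand), near the start of the gamma cluster, was the 1 clustered gene called in untreated cells, at 1.17, 0.87 and 0.95 CPM in CT and 2.66, 2.76 and 2.42 CPM in KO. Its log2 fold change was 1.40 ± 0.34 (adjusted p = 0.00875, edgeR), it kept its call in all 6 fits with 1 library fewer, and under IFNγ its groups overlapped (1.001 ± 0.58, not called). Its neighbor PCDHGA3 had a similar fitted value of 1.38 ± 0.58 in untreated cells that was not called (adjusted p = 0.0937, edgeR), but it was called after filterByExpr, which tests fewer low-count genes (1.40, adjusted p = 0.0317). The most abundant clustered gene, PCDHGB5, was at 3.80, 3.97 and 6.87 CPM in CT and 5.05, 5.62 and 7.20 CPM in KO, with overlapping groups (0.28 ± 0.29). PCDHGC3, one of the C-type genes that differ from the rest of the cluster in being used broadly, was at 1.46, 1.91 and 1.69 CPM in CT and 2.74, 1.61 and 3.80 CPM in KO (0.72 ± 0.37, adjusted p = 0.161, edgeR). Under IFNγ PCDHGC3 was at 1.26, 0.46 and 2.18 CPM in CT and 2.94, 2.35 and 4.47 CPM in KO, without overlap (1.22 ± 0.47, adjusted p = 0.0754, edgeR), and it was called when all 12 libraries shared 1 fit (adjusted p = 0.0456).

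**Figure D5:**
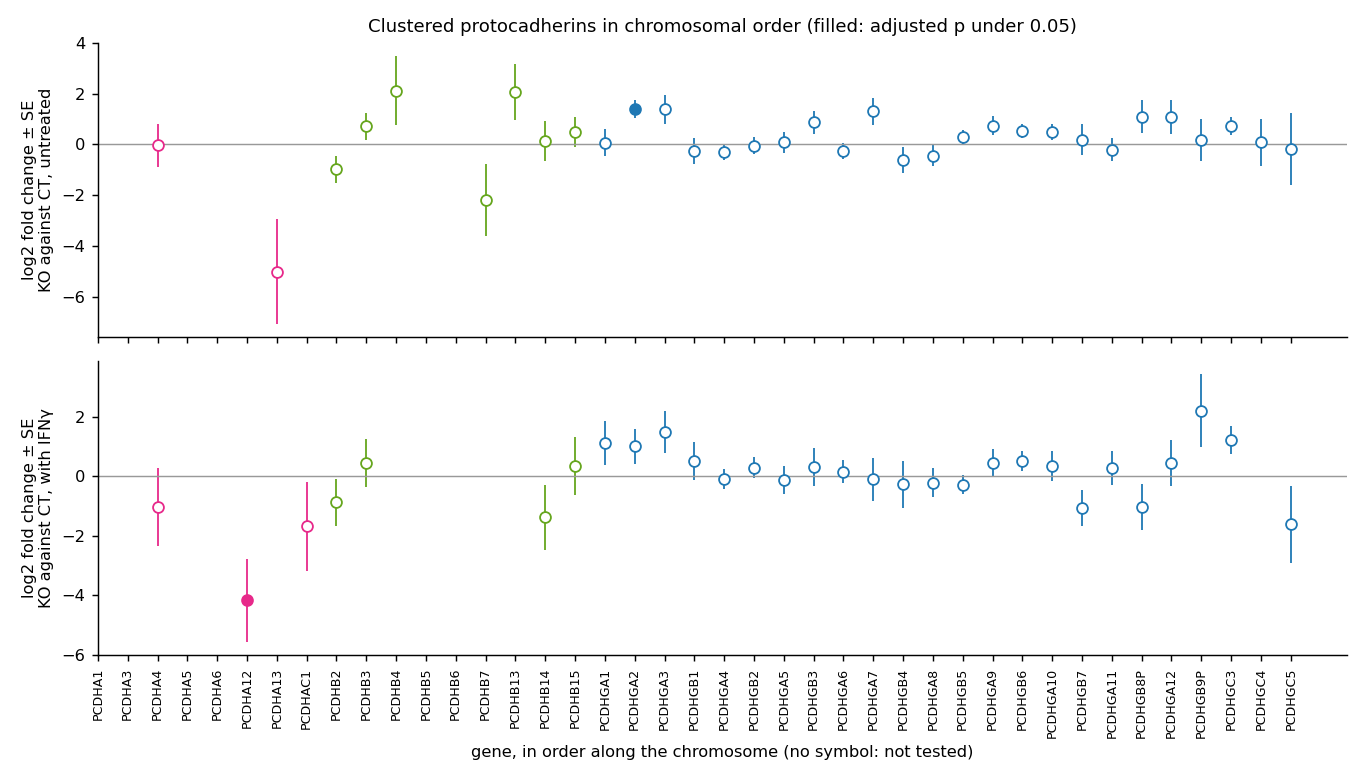
Log2 fold change ± SE of KO against CT for the clustered members in chromosomal order (x axis), untreated above and with IFNγ below; filled symbols passed adjusted p under 0.05, and members with too few counts have no symbol. The 1 filled symbol above is PCDHGA2 (1.40) and the 1 below is PCDHA12 (-4.17).

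Few of these genes, as few of all genes, were called for IFNγ in CT. Of 56 members tested, PCDH7 was higher and PCDH9 lower, where 3.53% of 24416 genes were called higher and 1.82% lower (edgeR), and 0 of the 34 clustered genes tested were called (2 at an unadjusted p under 0.05, and 0 by DESeq2). PCDH7 was at 51.1, 51.0 and 55.9 CPM untreated and at 120, 90.7 and 120 CPM with IFNγ. Every treated library was above every untreated one, with a log2 fold change of 1.09 ± 0.13 (adjusted p = 0.000278, edgeR). PCDH9 was at 36.3, 35.8 and 26.4 CPM untreated and 16.7, 22.2 and 17.7 CPM with IFNγ, a change of -0.79 ± 0.18 (adjusted p = 0.0243, edgeR) that was lost without CT 11, CT 12, IFNγ-treated CT 11 or IFNγ-treated CT 13 (adjusted p 0.0832 to 0.126) and when all 12 libraries shared 1 fit (0.191). CDH1 was at 387, 354 and 399 CPM untreated and 386, 396 and 397 CPM treated, a difference of 0.07 ± 0.09.

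Libraries of one line that share a number deviated together, so IFNγ was also fitted with the number as a block. With this replicate block 8.67% of genes were called higher and 9.88% lower in CT, and CDH3 (0.38, adjusted p = 1.08e-05), CDH15 (4.05, adjusted p = 0.0286) and CDH18 (0.26, adjusted p = 0.0415) were called higher besides (edgeR). CDH3 rose with IFNγ in each numbered pair of CT libraries, by 1.11-, 1.55- and 1.23-fold. CDH15 had 3 counts in untreated CT and 21 in treated CT, a ratio of 14.5 (95% counting interval 4.33 to 76.0).

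In KO, IFNγ was followed by no call among the 50 members tested without the block (edgeR; 2 had an unadjusted p under 0.05, and DESeq2 called 0), where 0.978% of 24131 genes were called higher and 0.00414% lower. With the replicate block 3.92% of genes were called higher and 1.60% lower, and PCDH7 was called (0.46, adjusted p = 0.0261, edgeR). PCDH7 rose in each numbered pair of KO libraries, from 8.82 to 13.0, from 16.1 to 19.96 and from 9.62 to 13.0 CPM, that is 1.48-, 1.24- and 1.36-fold, against 2.35-, 1.78- and 2.14-fold in CT. CDH10 was nearly the same in treated and untreated KO libraries of 1 number (ratios of 1.01, 0.99 and 1.04), although the 3 numbers ranged from 47.9 to 155 CPM. The 6 PCDHB genes tested in KO all had fitted values below 0 (-0.45 to -1.74), and every one had overlapping groups. Of all 32 clustered genes tested in KO, 9 had a value above 0, with a median of -0.40 (-0.005 for all genes). The summed clustered level with IFNγ was 0.835 times the untreated one in KO, without overlap, and 0.925 times in CT, with overlap. This difference was not tested.

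The interaction of line and IFNγ was called for 0 of the 64 members (edgeR; 3 had an unadjusted p under 0.05, DESeq2 called 0), with or without the block, where 0.111% of 27806 genes were called without it and 1.21% with it. PCDH7 had the interaction value -0.66 ± 0.30 (unadjusted p = 0.0444, adjusted p = 0.789, edgeR). The value was 0.49 ± 0.45 for PCDH9, 0.09 ± 0.16 for CDH1 and -0.29 ± 0.58 for CDH3. No difference in IFNγ response between the lines was shown for any member. CDH15 and CDH17 had 0 counts in all KO libraries, so their interaction could not be estimated (CDH15 -4.17 ± 7973) and the test decides nothing for them. Other members had 0 counts in a whole group, and for them the test says little. These were CDH12, PCDH12, PCDHA12, PCDHA13 and PCDHB6 in untreated KO, and PCDHA6, PCDHB5 and PCDHB7 in treated KO. In treated CT they were CDH5, PCDHA1, PCDHA3, PCDHA13, PCDHB7 and PCDHGC4.

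Partner genes of the cadherins were taken from lists chosen with earlier results of these data known. Without IFNγ, 14.0% of all genes tested were called higher in KO and 18.2% lower, the shares to set beside each count. Of 13 catenins and armadillo partners, 11 were tested in untreated cells, with 1 higher and 5 lower in KO. PKP2 (plakophilin 2) rose by 2.61 ± 0.24 on the log2 scale (adjusted p = 1.36e-05), PKP1 fell by 1.95 ± 0.19 (adjusted p = 2.20e-05), and CTNND2 (delta-catenin) went from 105 counts to 0, at least 26.9-fold lower (adjusted p = 0.00101, edgeR). Of the 8 desmosomal cadherins and desmoplakin, which link cells through keratin, 3 were higher and 3 lower. DSC1 (2.95 ± 0.30) and DSC3 (1.14 ± 0.15) rose while DSG3 (-2.65 ± 0.37) and DSG1 (-1.14 ± 0.29) fell. Other members of the cadherin superfamily gave 2 higher and 4 lower of 12 tested, with FAT2 (1.37 ± 0.32) and CELSR3 (0.73 ± 0.14) higher, FAT3 lower (-4.05 ± 0.48), and CDHR3 going from 155 counts to 0, at least 39.7-fold lower.

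Of the 16 genes for CTCF, cohesin and silencing factors known to act on the protocadherin clusters, 4 were higher and 1 lower in untreated KO. Over all genes the untreated shares were 14.0% higher and 18.2% lower. DNMT3B, a DNA methyltransferase, was at 2.74 ± 0.57 CPM in CT and 16.9 ± 6.85 CPM in KO (SD, n = 3; 2.67 ± 0.32 on the log2 scale, adjusted p = 0.000103, edgeR) and SETDB1, a histone methyltransferase, was higher by 0.41 ± 0.11. DNMT3A was lower (-0.99 ± 0.21, adjusted p = 0.00391, edgeR). Of 18 genes within or beside the clusters, 1 was higher (ZMAT2, 0.35 ± 0.11) and 3 lower, among them ARAP3 (-5.70 ± 0.45) and RELL2 (-1.01 ± 0.20). Under IFNγ the counts were 1 higher and 2 lower for the catenin list, 3 and 2 for the desmosomal list, 2 and 3 for the superfamily list, 1 and 1 for the CTCF list, and 0 and 2 for the neighbors. The shares of all genes were then 13.2% higher and 15.7% lower. For IFNγ in CT the same lists gave 0 higher and 2 lower (PKP1 -1.10 ± 0.14, JUP -0.40 ± 0.10), 0 and 1 (DSG1 -1.91 ± 0.30), 1 and 1 (CLSTN3 1.50 ± 0.17, CLSTN1 -0.43 ± 0.11), 0 and 0, and 0 and 0. With the replicate block the counts for IFNγ in CT became 0 and 7, 0 and 5, 1 and 4, 0 and 1, and 1 and 3 (edgeR). Over all genes, IFNγ in CT gave 3.53% higher and 1.82% lower without the block, and 8.67% and 9.88% with it. For IFNγ in KO none of these lists had a call without the block, and with it they gave 0 and 0, 0 and 4, 2 and 0, 0 and 1, and 0 and 1. In KO, 0.978% of all genes were higher and 0.00414% lower without the block, and 3.92% and 1.60% with it. The interaction was called for 1 desmosomal gene with the block and for none of the lists without it. Over all genes it was called for 1.21% with the block and 0.111% without it.

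Of the 6 epithelial markers, 1 was higher and 1 lower in KO, untreated and with IFNγ. Among all genes, 14.0% were higher and 18.2% lower untreated, and 13.2% and 15.7% with IFNγ. EPCAM, an epithelial adhesion molecule, was lower (-1.92 ± 0.15 untreated) and KRT7, a simple-epithelium keratin, was higher (0.95 ± 0.18 untreated). Of the 10 markers of other cell types, 8 were tested, with 1 higher and 3 lower untreated and 1 higher and 4 lower with IFNγ, and the 1 higher was COL1A2 in both.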

How the data were processed

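RNA was sequenced from 12 libraries of the HT1376 control and FOXP3 knockout lines. Per the labels and the study's methods, ribosomal RNA was depleted, paired reads were aligned with STAR 2.7.11a to GRCh38, Mycoplasma reads were removed with Kraken, and htseq-count gave the deposited table of raw counts per gene; its overlap mode and strand setting are not given in the sources used here, so reads of overlapping genes, including the alpha and gamma protocadherins with their shared exons, may be split or lost. The authors deposited counts without normalization. Genes without a symbol held 0.100% to 0.121% of counts.

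Groups came from the labels. The members and the lists of partner genes were chosen with earlier results of these data known. Genes with 10 or more counts in a fit were tested with edgeR 4.0.16 in R 4.3.3 (TMM, quasi-likelihood F test, Benjamini-Hochberg over all genes tested), and calls needed an adjusted p under 0.05. Each comparison was fitted on its own 6 libraries and the interaction on 12. The SE was the log2 fold change divided by the root of F. CPM were scaled with TMM factors over all 12 libraries. The fit was tested on simulated data. DESeq2 1.42.0 and other settings were alternatives. Named were CDH1, CDH2 and CDH3, every member called for IFNγ, up to 4 called members per class in each comparison of the lines, the members beside the count minimum, and up to 2 genes in each direction per partner list; IRF1, other uncalled members, calls with overlapping groups and called members past the 4 of a class were named after their values were seen. Libraries with the same number deviated together within a line (r of gene-wise deviations 0.139 to 0.152 in CT and 0.180 to 0.267 in KO, against -0.190 to -0.003 for different numbers) and less clearly between lines (0.041 to 0.136), so the block is used for IFNγ. No 2 libraries were identical. Positions and exon lengths came from GENCODE on GRCh38, matched by Ensembl identifier, and promoters from RefSeq.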

Additional observations from a re-analysis of the deposited data

How the results depend on the processing

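Calls between the lines held their number within 1.5 times under relative log expression size factors, no low-count filter, filterByExpr, DESeq2 and 1 fit of all 12 libraries: 14 to 19 members without IFNγ (15 as reported) and 9 to 17 with it (13). Requiring a log2 fold change over 2 besides left 9 without IFNγ. With the replicate block 16 and 14 members were called between the lines. Leaving out 1 library gave 12 to 16 without IFNγ, 10 to 13 with it, 1 to 2 for IFNγ in CT, and 0 to 0 for IFNγ in KO and for the interaction. For IFNγ in CT, 2 members as reported became 4 without the filter, 5 with the replicate block, 1 in the fit of all 12 libraries and 0 with the fold threshold; the cause was not tested. For IFNγ in KO the replicate block gave 1 call in place of 0, and leaving out both KO libraries numbered 12, an alternative chosen after seeing the data, gave 0 there and for the interaction.

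Near 0, signs turned for genes without a call. CDH3 for IFNγ in KO (0.06) became -0.0302 with the replicate block and -0.27 without KO 11, -0.02 without KO 12 and -0.72 without treated KO 13, in a range of -0.72 to 0.61 over fits with 1 library fewer. PCDH9 there became 0.10 without KO 12 (range -0.76 to 0.10), and the CDH3 interaction 0.33 without KO 13 and 0.11 without treated KO 11 (range -1.104 to 0.33). Over all genes the block moved the calls for IFNγ in CT from 1307 to 4530, for IFNγ in KO from 237 to 1334 and for the interaction from 31 to 336. Same-numbered libraries of different lines were not taken as paired, and the block turned no other member's call than those named here and in the report, CDH19 gaining one untreated and CDH23 and PCDHGC3 gaining and PCDHA12 losing one under IFNγ.

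The ratio of summed clustered level, KO to CT, was 1.19 untreated, and IFNγ to untreated was 0.925 in CT and 0.835 in KO; for the beta cluster alone these were 1.09, 0.745 and 0.616. Leaving out 1 library gave 1.17 to 1.22, 0.886 to 0.970 and 0.785 to 0.931 and, for KO to CT under IFNγ (1.08), 1.04 to 1.23. At 1 to 46 counts per library the alpha cluster allows no statement on single genes.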

Other observations

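Of the 96 cadherin and protocadherin names, 32 stayed under 10 counts, 18 of them clustered, and 9 had no count in any library. CDH11, a mesenchymal cadherin, and CDH9 were among those at 0, CDH20 had 3 counts and CDH22 had 2 and CDH6 and CDH7 had 8 each, over all 12 libraries.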
